A study of Mus musculus with 12 samples.

Results

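Expression of 31 genes of the mouse endoplasmic reticulum (ER) was followed in peritoneal macrophages under IL4 with emodin, under IL4 alone and under vehicle. The genes encode the stress sensors of the ER membrane and the transcription factor XBP1, the chaperones and folding enzymes of its lumen, the translocon, and the machinery of ER-associated degradation. They were chosen by name, and their probes were found through the RefSeq transcript given for each probe on the array. This gave 40 of the 55681 probes, of which 38 lay well above background. Of the 31 genes, 30 could be tested among 20862 genes in all, a number that includes 7665 transcripts without a symbol. The exception was *Derl3*, a derlin of ER-associated degradation, whose probe lay above background on 0 of 4 IL4 plus emodin arrays, 1 of 4 IL4 arrays and 0 of 4 control arrays. The 30 tested genes lay above background on all 12 arrays, so none of them entered through a single group.

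The cells were adherent peritoneal macrophages of C57BL/6 mice, labelled WT, aged 8 weeks, washed free of non-adherent cells and kept in serum-free medium before treatment. One group of 4 arrays held cells given emodin (50 µM), an anthraquinone made by plants such as rhubarb, together with IL4 (10 ng/ml). Another 4 arrays held cells given IL4 at 10 ng/ml alone, and 4 control arrays held cells given vehicle. No arm received emodin without IL4, so the action of emodin alone was not measured. In every group, replicates 1 and 2 are labelled female and replicates 3 and 4 male. The sample descriptions give 6 h of treatment while the treatment protocol gives overnight. The series text speaks of peripheral WBC PMN samples, that is blood leukocytes of the neutrophil kind, while each sample is labelled peritoneal macrophage. The series text calls the arrays biological replicates, but whether the RNA on an array came from 1 mouse or from a pool is not given, and the p-values then measure only how far these arrays spread, which may be technical. According to its title, the study asked whether emodin acts on the alternative activation of macrophages, the state that IL4 induces.

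Proteins that are secreted or inserted into membranes enter the ER through the SEC61 channel, fold with the help of the HSP70 chaperone BiP and of lectin chaperones, and acquire disulphide bonds from protein disulphide isomerases. When unfolded protein accumulates, the sensors IRE1, PERK and ATF6 start the unfolded protein response. IRE1 removes an intron from *Xbp1* mRNA, PERK lowers translation by phosphorylating eIF2 alpha, and ATF6 is cut in the Golgi to release a transcription factor. Active ATF6 and XBP1 raise chaperone and degradation genes, many of them through ER stress elements in their promoters, and proteins that fail to fold are passed back to the cytosol for degradation. In macrophages this machinery serves a large secretory and phagocytic load.

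The ER stress element has the letters CCAAT, then 9 bases of any kind, then CCACG. It was searched on both strands of the RefSeq promoter windows (GRCm38.p6), which run from 250 bases before the annotated gene start to 50 bases after it. Of the 31 genes, 26 had a window, and *Atf6*, *Derl1*, *Hyou1*, *Manf* and *Sec61a1* had none. The element stood in the windows of 9 of the 26 genes (34.6%), against 37 of all 27025 genes with a window (0.137%). A second form, ATTGG, 1 base of any kind, then CCACG, stood in 2 of the 26 (7.69%) and in 12 of all genes (0.0444%). They are shown because 11 of the 26 windows hold one form or the other. They are written along the motif's own strand, with the fixed letters in capitals.
Hspa5: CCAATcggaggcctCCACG
Hsp90b1, far copy: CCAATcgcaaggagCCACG
Hsp90b1, near copy: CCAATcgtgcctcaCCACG
Dnajc3: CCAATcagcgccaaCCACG
Creld2: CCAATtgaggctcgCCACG
Calr: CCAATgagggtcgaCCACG
Canx: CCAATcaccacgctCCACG
Pdia6: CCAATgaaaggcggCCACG
Syvn1: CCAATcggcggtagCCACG
Derl3: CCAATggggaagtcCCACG
Herpud1, second form: ATTGGgCCACG
Dnajb11, second form: ATTGGcCCACG

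The *Hspa5* element lay 65 to 47 bases before the gene start and the *Dnajc3* element 105 to 87 bases before it. The remaining elements before a start lay between 212 and 26 bases upstream of it, and that of *Dnajb11* lay 7 to 17 bases past the first transcribed base. The 250 bases before the start are shown for 4 genes. *Hspa5*, the gene of BiP, and *Dnajc3*, which was lower on the emodin arrays, carry the element (in capitals), while *Pdia4* and *Xbp1*, both risen with IL4, hold neither form in their windows. All 4 read from 5′ to 3′ on the gene's own strand, at chr2:34771840-34772089 (plus), chr14:118937682-118937931 (plus), chr6:47813513-47813762 (minus) and chr11:5520391-5520640 (plus).
Hspa5: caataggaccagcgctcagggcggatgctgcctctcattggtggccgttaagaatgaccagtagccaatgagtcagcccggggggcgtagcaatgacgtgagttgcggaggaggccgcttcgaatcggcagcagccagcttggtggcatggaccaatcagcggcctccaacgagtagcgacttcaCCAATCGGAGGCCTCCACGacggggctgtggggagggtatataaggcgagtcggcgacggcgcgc
Dnajc3: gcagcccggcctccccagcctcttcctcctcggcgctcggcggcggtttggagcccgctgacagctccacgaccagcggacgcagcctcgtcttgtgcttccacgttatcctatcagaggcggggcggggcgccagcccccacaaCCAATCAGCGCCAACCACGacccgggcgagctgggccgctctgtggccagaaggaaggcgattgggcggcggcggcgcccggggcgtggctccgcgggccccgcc
Pdia4: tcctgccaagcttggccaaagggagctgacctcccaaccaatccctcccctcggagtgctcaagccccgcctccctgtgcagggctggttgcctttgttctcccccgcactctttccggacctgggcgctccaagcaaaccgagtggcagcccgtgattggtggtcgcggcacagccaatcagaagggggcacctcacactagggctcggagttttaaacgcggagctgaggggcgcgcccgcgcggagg
Xbp1: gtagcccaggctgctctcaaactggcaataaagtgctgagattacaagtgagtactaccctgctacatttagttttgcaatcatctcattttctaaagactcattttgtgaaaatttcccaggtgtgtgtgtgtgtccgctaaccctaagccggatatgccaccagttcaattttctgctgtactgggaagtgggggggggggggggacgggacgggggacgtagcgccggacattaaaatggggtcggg

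The core TGACGTGG, read by XBP1 and ATF6, stood in 0 of the 26 windows and in 0.714% of all genes' windows. The ATF4-type site TGATGNAAT stood in 0 of the 26 and in 1.08% of all. Both were searched on both strands. A match is a description of letters, and its absence says only that these letters are not in the window.

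**Figure D1:**
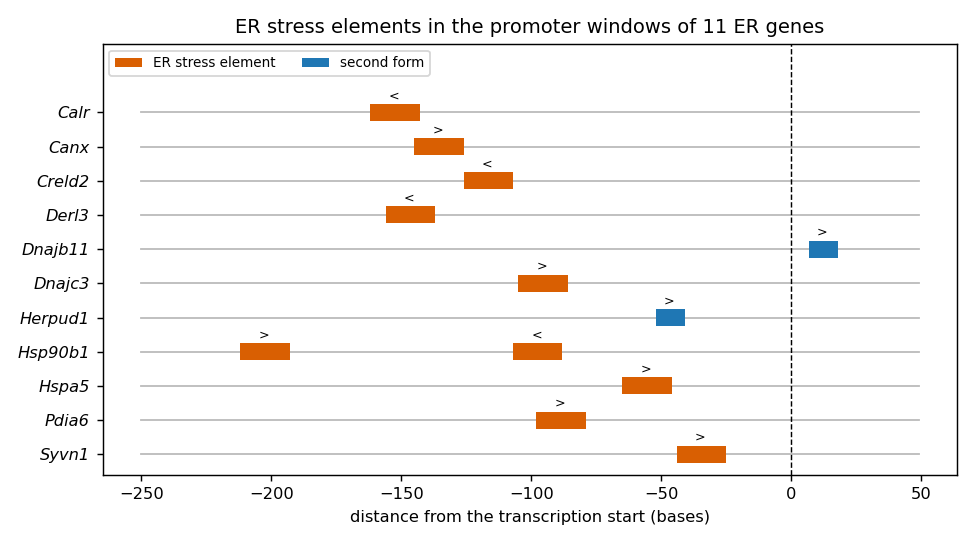
Positions of ER stress elements in the promoter windows of the 11 genes that carry one, with the distance from the gene start in bases on the horizontal axis. Each bar is an element, orange for the longer form and blue for the second form, and arrowheads point right where it lies on the gene's own strand and left where it lies on the other. All but that of *Dnajb11* lie before the start, and *Hsp90b1* carries 2.

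The values are log2 spot intensities minus the 75th percentile of the array, so a level of 0 is the intensity at that percentile, and every direction below is relative to it. The barcodes of the arrays, here taken to name slide and row, put the emodin arrays alone on a slide. They put the other 8 arrays together on another, with IL4 in row 1 and control in row 2. On that reading, a slide difference cannot be told apart from emodin, nor a row difference from IL4. The raw intensity at the 75th percentile was 488 ± 31.4 on IL4 plus emodin arrays, 776 ± 24.5 on IL4 arrays and 730 ± 74.0 on control arrays (SD, n = 4 each), and the scaling chosen therefore matters for the emodin comparisons. Fewer cells of a type and less RNA per cell cannot be told apart in these bulk samples. *Arg1*, the arginase that marks alternative activation, was higher with IL4 than with control by 6.91 ± 0.19 on the log2 scale (SE) and fell by 2.70 ± 0.19 with IL4 plus emodin against IL4. Of the macrophage markers, 7 of 7 on the array were detected on all arrays, with summed levels of 663 to 787, 713 to 807 and 650 to 661 times the 75th percentile in IL4 plus emodin, IL4 and control cells. These sums rest mostly on *Lyz2* and *Csf1r*. Called as described below, *Csf1r* (0.64) and *Adgre1* (0.29) were higher with IL4 than with control, and *Cd14* (-0.84) and *Fcgr1* (-0.57) lower. With IL4 plus emodin against IL4, *Lyz2* (0.32) and *Adgre1* (0.18) were higher. In that comparison *Fcgr1* (-2.89), *Mertk* (-0.57) and *Csf1r* (-0.55) were lower. The B and plasma cell markers summed to 0.407 to 0.711 with IL4 plus emodin, 1.40 to 2.50 with IL4 and 1.17 to 2.69 with control. Of these 8 markers, 1, 6 and 4 were above background on all 4 arrays of IL4 plus emodin, IL4 and control, and *Jchain*, which defines plasma cells, was so on 0, 1 and 1 arrays of those groups. Summed T cell markers ranged from 8.33 to 18.3, from 8.04 to 9.09 and from 10.4 to 10.6 in the same order of groups. Neutrophil markers summed to 8.05 to 10.8, 8.98 to 11.6 and 9.79 to 15.8 in that order, with 3, 4 and 4 of 7 above background on all 4 arrays. Mesothelial cell markers summed to 1.72 to 6.03, 2.02 to 7.23 and 1.46 to 4.27 in that order, with 5, 6 and 5 of 6 above background on all 4 arrays. Mast cell markers summed to 1.05 to 2.81, 1.24 to 3.50 and 0.797 to 2.24, with 5, 6 and 4 of 7 above background on all 4 arrays. Eosinophil markers summed to 0.966 to 1.08, 0.705 to 1.05 and 1.34 to 1.49, with 2, 3 and 2 of 5 above background on all 4 arrays.

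A gene was called where the limma fit across all genes, with arrays not paired, gave a Benjamini-Hochberg adjusted p below 0.05. With IL4 against control, 6 of the 30 ER genes (20.0%) were higher, where 8.98% of all genes were, and 1 (3.33%) was lower, where 8.56% of all genes were. Their median log2 difference was 0.08, against -0.03 over all genes. Between IL4 plus emodin and IL4, 12 of 30 (40.0%) were higher and 12 (40.0%) lower, against backgrounds of 39.4% and 26.5%. Their median was 0.02, against 0.17 over all genes. The share called higher was near the background. The same shares over all genes are the background for the counts of role groups and lists below under this scaling. Other scalings have their own background, which is given where the ER genes are compared under them. The 2 emodin comparisons and the IL4 comparison share arrays, so their values are given side by side and no overlap between them is read as a result.

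**Figure D2:**
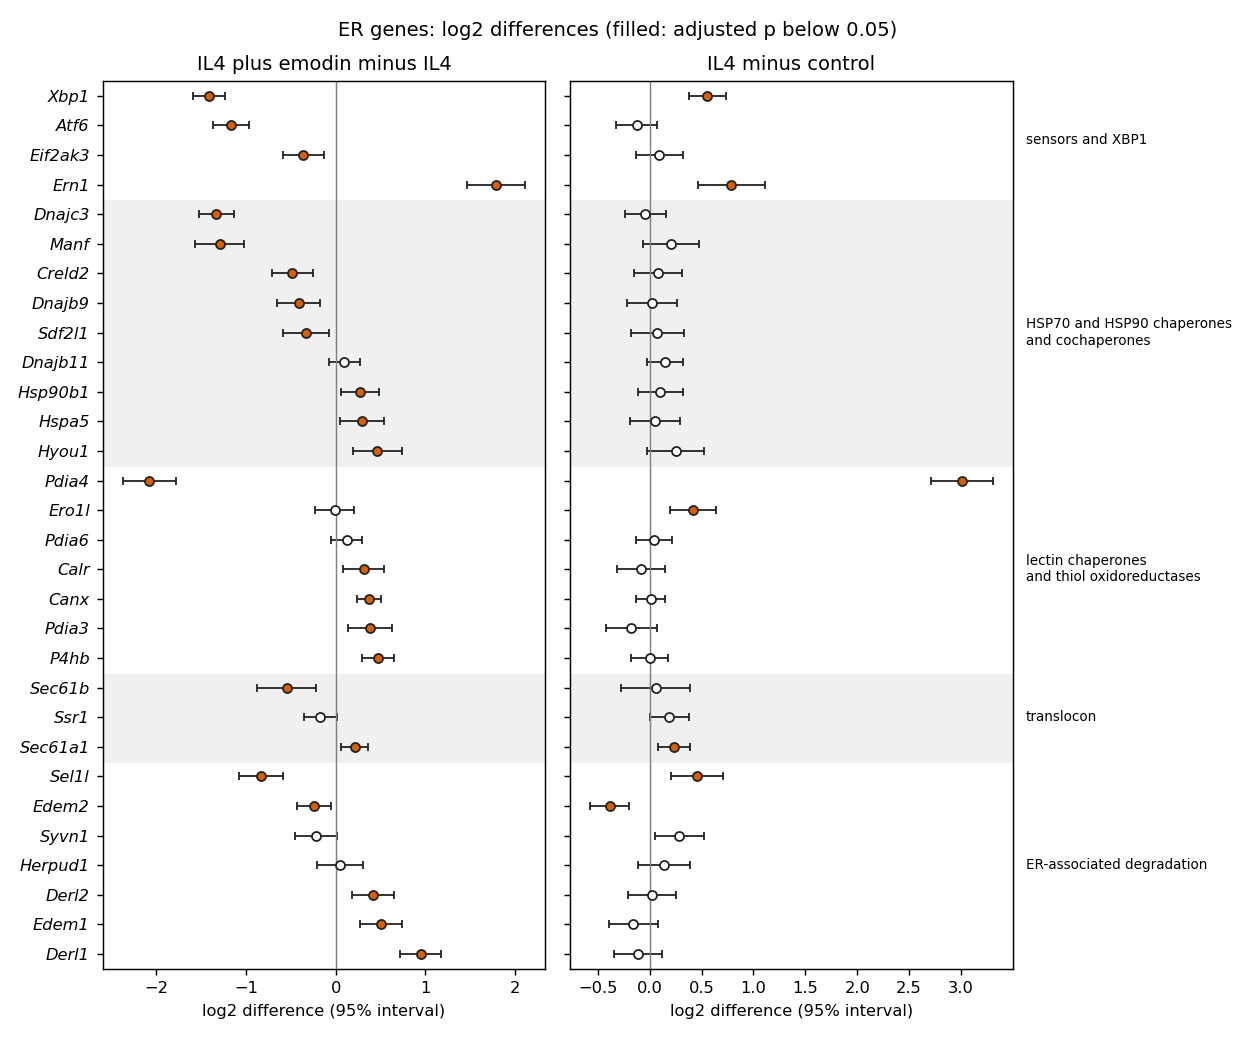
Log2 differences of the 30 tested ER genes with 95% intervals from the limma fit, IL4 plus emodin minus IL4 on the left and IL4 minus control on the right, grouped by role. Filled points are genes called at an adjusted p below 0.05. With IL4 most intervals span 0 and *Pdia4* stands apart at 3.01, while with emodin the points spread from -2.08 (*Pdia4*) to 1.79 (*Ern1*).

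Of the 30 genes, 6 (20.0%) were higher with IL4 than with control, where 8.98% of all genes were. The chaperones that the unfolded protein response is best known for were not among them. The genes that rose were a single disulphide isomerase, *Pdia4*, the sensor gene *Ern1* and its target *Xbp1*, the degradation adaptor *Sel1l*, the oxidase *Ero1l* (now *Ero1a*) and the channel subunit *Sec61a1*. *Edem2* fell. Only *Pdia4* differed by more than 2-fold.

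*Pdia4* encodes ERp72, a disulphide isomerase with several thioredoxin-like domains. Its levels were 3.05, 3.31, 3.38 and 3.56 on the IL4 arrays, against 0.19, 0.26, 0.54 and 0.28 on the control arrays. All 4 IL4 arrays lay far above every control array. The difference was 3.01 ± 0.14 (SE), 8.03-fold, with an adjusted p of 4.60e-08. Some markers of other cells moved the same way and some the other way. The T cell marker *Cd3e* (-0.95, adjusted p = 0.0195) and the eosinophil marker *Siglecf* (-0.84, adjusted p = 0.000466) were lower with IL4 than with control. Of 6 tested B and plasma cell markers 1 was called with IL4, the plasma cell receptor gene *Tnfrsf17*, which was higher (1.21, adjusted p = 5.15e-05), and the summed level of the list overlapped between IL4 and control. The mesothelial markers *Lrrn4* (2.42, adjusted p = 0.0265) and *Krt8* (1.42, adjusted p = 0.0288) and the mast cell gene *Hdc* (1.75, adjusted p = 0.0113) were higher too, the other 4 mesothelial and the other 5 tested mast cell markers were not called, and the part of these cells in the result was not tested. On the emodin arrays *Pdia4* stood at 0.95, 1.32, 1.19 and 1.52, below every IL4 array and above every control array. It was lower than with IL4 by 4.22-fold (-2.08 ± 0.14, adjusted p = 1.23e-07), as were *Tnfrsf17* (-2.51, adjusted p = 2.09e-08), *Lrrn4* (-4.43, adjusted p = 0.000107) and *Hdc* (-1.58, adjusted p = 0.00494). The other tested B and plasma cell markers were called lower too. Of the other tested mast cell and mesothelial markers, *Kit* was higher (1.92, adjusted p = 2.8e-07) and the rest were not called. Markers of further cells were higher too, namely *Cd3e* (1.03, adjusted p = 0.00285), the neutrophil genes *Camp* (0.61, adjusted p = 0.00187) and *Mmp8* (0.53, adjusted p = 0.00504), and the eosinophil gene *Ear6* (0.41, adjusted p = 0.0203). *Pdia4* was higher than with control by 1.90-fold (0.93 ± 0.14, adjusted p = 9.56e-05), but with spike-in scaling the difference from control was -0.031.

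*Xbp1* encodes the transcription factor whose mRNA IRE1 splices. Its levels were 5.69, 5.64, 5.75 and 5.57 with IL4 plus emodin, 7.12, 7.17, 7.11 and 6.92 with IL4, and 6.44, 6.60, 6.62 and 6.43 with control. The 3 groups did not overlap, and the emodin arrays were the lowest. *Xbp1* was higher with IL4 than with control by 0.56 ± 0.08 (adjusted p = 0.000477). On the emodin arrays it was 2.66-fold lower than with IL4 (-1.41 ± 0.08, adjusted p = 4.13e-08) and also lower than with control (-0.86 ± 0.08, adjusted p = 2.43e-06). The files give no probe sequence, so spliced and unspliced *Xbp1* were not measured apart.

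*Ern1* encodes IRE1 alpha, the kinase and ribonuclease that splices *Xbp1*. It stood at 2.28, 2.28, 1.95 and 2.25 with IL4 plus emodin, at 0.64, 0.29, 0.28 and 0.38 with IL4, and at 0.05, -0.55, -0.65 and -0.40 with control. Here too no 2 groups overlapped, but the order differed from that of *Xbp1*, with the emodin arrays highest. The difference was 0.79 ± 0.15 for IL4 against control (adjusted p = 0.00299) and 1.79 ± 0.15 for IL4 plus emodin against IL4 (3.46-fold, adjusted p = 8.32e-07). Among the genes called higher on the emodin arrays, *Ern1* was the 1 that kept its call under each of the other processing settings tried, at 0.71 (adjusted p = 0.00391) with spike-in scaling.

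*Sel1l* encodes the adaptor that links luminal substrates to the ubiquitin ligase HRD1. Its levels were 2.25, 2.03, 1.89 and 1.90 with IL4 plus emodin, 3.04, 2.84, 2.73 and 2.78 with IL4, and 2.64, 2.26, 2.36 and 2.29 with control. The emodin arrays lay below every array of the other groups. It rose with IL4 by 0.46 ± 0.11 (adjusted p = 0.0154), a call that was lost without IL4 replicate 1 (0.39, adjusted p = 0.050), and was lower with IL4 plus emodin than with IL4 by 1.78-fold (-0.83 ± 0.11, adjusted p = 4.94e-05).

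*Ero1l* encodes the oxidase that recharges disulphide isomerases, and *Sec61a1* the pore of the translocation channel. *Ero1l* stood at 0.68, 0.67, 0.72 and 1.02 with IL4 plus emodin, at 0.76, 0.75, 0.79 and 0.84 with IL4, and at 0.38, 0.41, 0.53 and 0.14 with control. It was higher with IL4 than with control (0.42 ± 0.10, adjusted p = 0.0129), and the emodin arrays overlapped the IL4 arrays (-0.01 ± 0.10, adjusted p = 0.922). *Sec61a1* was at 5.98, 6.10, 6.07 and 6.10 with IL4 plus emodin, at 5.87, 5.84, 5.83 and 5.85 with IL4, and at 5.76, 5.54, 5.62 and 5.54 with control. Its rise with IL4 was small, 0.24 ± 0.07 (adjusted p = 0.0355), and lost its call under 5 of the other settings and without 7 of the 8 arrays left out in turn. *Edem2*, a lectin that helps trim mannose from misfolded glycoproteins, was at 1.03, 1.16, 1.08 and 1.14 with IL4 plus emodin, at 1.19, 1.40, 1.51 and 1.28 with IL4, and at 1.60, 1.79, 1.86 and 1.69 with control. It was the gene called lower with IL4 (-0.39 ± 0.09, adjusted p = 0.00866), and with spike-in scaling that call was lost (-0.26, adjusted p = 0.236).

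**Figure D3:**
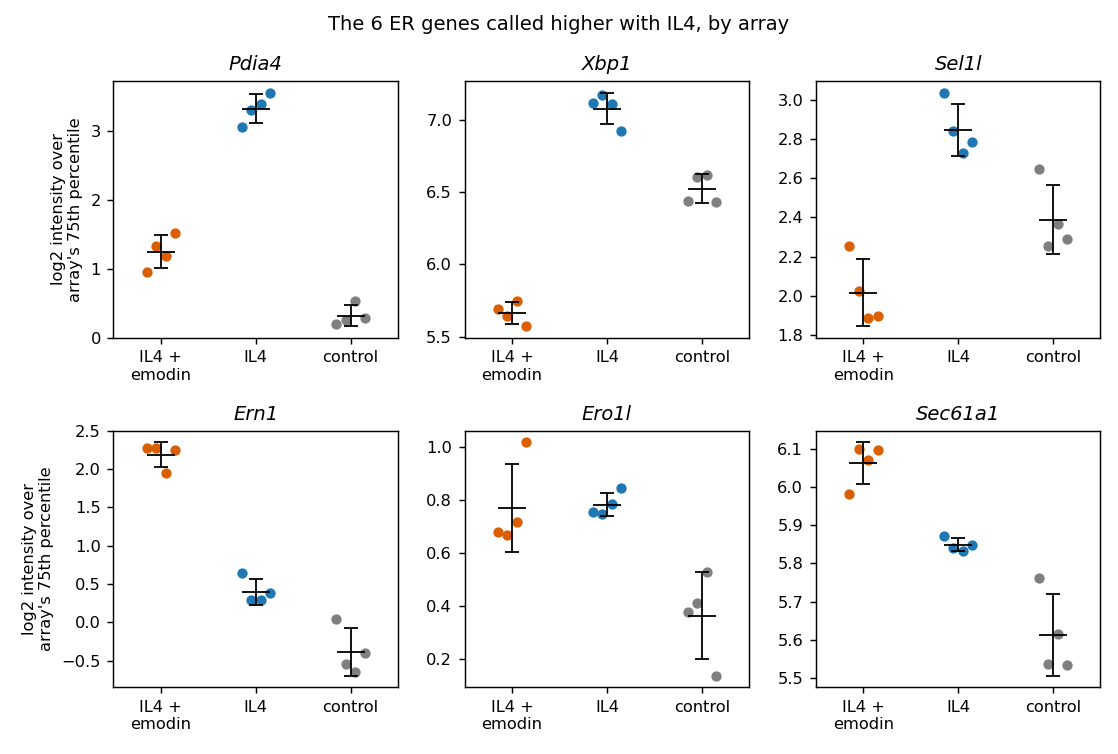
Levels on each of the 12 arrays of the 6 ER genes called higher with IL4 than with control, as log2 intensity over the 75th percentile of the array, with group means and SD (4 arrays each). With emodin, *Pdia4*, *Xbp1* and *Sel1l* lie below the IL4 arrays, *Ern1* and *Sec61a1* lie above them (*Sec61a1* not so with quantile or spike-in scaling), and *Ero1l* overlaps them.

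The 6 genes risen with IL4 thus did not move as a block on the emodin arrays, where 3 were lower than with IL4, 2 were higher (*Sec61a1* not so with quantile or spike-in scaling) and 1 was not called. Against control, 4 of the 6 were still higher and 2, *Xbp1* and *Sel1l*, were lower. Of those 4, *Ern1* stayed higher with spike-in scaling, where *Pdia4* stood at -0.031, *Ero1l* at -0.55 (adjusted p = 0.00345) and *Sec61a1* at -0.51 (adjusted p = 0.00228), and *Sec61a1* also lost its call with quantile scaling (0.18, adjusted p = 0.0862). The B and plasma cell markers, whose summed level was 0.407 to 0.711 on the emodin arrays and 1.40 to 2.50 on the IL4 arrays, moved with the 3 that were lower, and their part in these differences was not tested. The other 23 tested genes were not called with IL4 by their brightest probe, while another probe of *Derl2* was higher (0.46, adjusted p = 0.00273). Their 95% intervals lay between -0.42 and 0.52, and the widest, that of *Sec61b*, ran from -0.27 to 0.39. *Hspa5*, which encodes BiP, differed by 0.05 ± 0.11 (adjusted p = 0.798) and *Hsp90b1*, which encodes its HSP90-type partner GRP94, by 0.10 ± 0.10 (adjusted p = 0.532). *Syvn1*, the ligase HRD1 itself, was at 0.28 ± 0.11 (adjusted p = 0.0948). With the replicate number as a block, it was called higher (adjusted p = 0.0239).

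On the emodin arrays the sensor genes went different ways. While *Ern1* rose, *Atf6*, the gene of the membrane-bound transcription factor, fell, as did *Eif2ak3*, which encodes PERK. *Atf6* was at 0.23, 0.16, 0.10 and 0.15 with IL4 plus emodin, at 1.49, 1.27, 1.22 and 1.35 with IL4, and at 1.66, 1.35, 1.31 and 1.50 with control. Every emodin array lay far below the lowest IL4 array. The difference from IL4 was -1.17 ± 0.09 (2.25-fold lower, adjusted p = 4.90e-07), while IL4 and control overlapped (-0.12 ± 0.09, adjusted p = 0.403). *Eif2ak3* was at 1.22, 0.99, 1.25 and 0.81 with IL4 plus emodin and at 1.47, 1.39, 1.47 and 1.38 with IL4, a smaller difference without overlap (-0.36 ± 0.10, adjusted p = 0.00960). Of the sensor and XBP1 genes, 1 of 4 was therefore higher and 3 of 4 were lower.

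Among the 9 genes of the HSP70 and HSP90 chaperones and their partners, 3 (33.3%) were higher with IL4 plus emodin than with IL4. Another 5 (55.6%) were lower and 1 was not called, where 39.4% of all genes were higher and 26.5% lower. *Dnajc3*, which encodes the J-protein p58IPK, was at 1.29, 1.29, 1.23 and 1.25 with IL4 plus emodin, at 2.71, 2.54, 2.63 and 2.52 with IL4, and at 2.64, 2.62, 2.87 and 2.43 with control. The emodin arrays lay close together and far below all the rest. The difference from IL4 was -1.33 ± 0.09 (2.52-fold lower, adjusted p = 1.50e-07). *Manf*, a small BiP-binding protein that is also secreted under stress, was at 2.33, 2.41, 2.56 and 2.64 with IL4 plus emodin, at 3.65, 3.80, 3.87 and 3.78 with IL4, and at 3.28, 3.73, 3.85 and 3.42 with control. It too was below every array of the other groups, with a difference from IL4 of -1.29 ± 0.12 (2.45-fold lower, adjusted p = 2.92e-06).

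The other 3 that fell did so by less. *Creld2*, a stress-induced isomerase-like protein, was at 4.07, 4.23, 4.43 and 4.21 with IL4 plus emodin and at 4.66, 4.78, 4.86 and 4.58 with IL4 (-0.49 ± 0.10, adjusted p = 0.00151). *Dnajb9*, the J-protein ERdj4, which represses IRE1, was at 2.20, 2.29, 2.55 and 2.31 with IL4 plus emodin and at 2.77, 2.81, 2.60 and 2.82 with IL4 (-0.41 ± 0.11, adjusted p = 0.00558), while its second probe was not called (-0.10, adjusted p = 0.564). *Sdf2l1*, which works with the J-protein ERdj3, was at 2.64, 2.67, 2.89 and 2.81 with IL4 plus emodin and at 2.89, 3.15, 3.21 and 3.08 with IL4. Its difference was -0.33 ± 0.12 (adjusted p = 0.0257) and lost the call when any of 4 arrays was left out. ERdj3 itself, encoded by *Dnajb11*, was not called (0.10 ± 0.08, adjusted p = 0.288).

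The 3 genes called higher were *Hyou1*, *Hspa5* and *Hsp90b1*. *Hyou1*, the exchange factor of BiP and the dimmest of the tested genes, was at -1.72, -1.37, -1.69 and -1.83 with IL4 plus emodin. It was at -2.03, -2.24, -1.97 and -2.22 with IL4 (0.46 ± 0.13, adjusted p = 0.00629). *Hspa5* was at 6.81, 7.19, 6.99 and 7.05 with IL4 plus emodin, at 6.72, 6.69, 6.86 and 6.60 with IL4, and at 6.67, 6.68, 6.88 and 6.42 with control. Its emodin and IL4 arrays overlapped, and the difference of 0.29 ± 0.11 (adjusted p = 0.0363) lost its call in 6 of the 8 fits that left out an emodin or IL4 array and turned to -0.13 with quantile scaling. *Hsp90b1* was at 6.08, 6.45, 6.30 and 6.50 with IL4 plus emodin and at 6.00, 6.10, 6.10 and 6.06 with IL4, again overlapping (0.27 ± 0.10, adjusted p = 0.0292). This call was lost without IL4 replicate 1 or 4 or without IL4 plus emodin replicate 2 or 4 (adjusted p = 0.0543 to 0.0853), and quantile scaling gave -0.022. With spike-in scaling all 3 turned lower, at -0.62 for *Hyou1*, -0.79 for *Hspa5* and -0.82 for *Hsp90b1*.

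**Figure D4:**
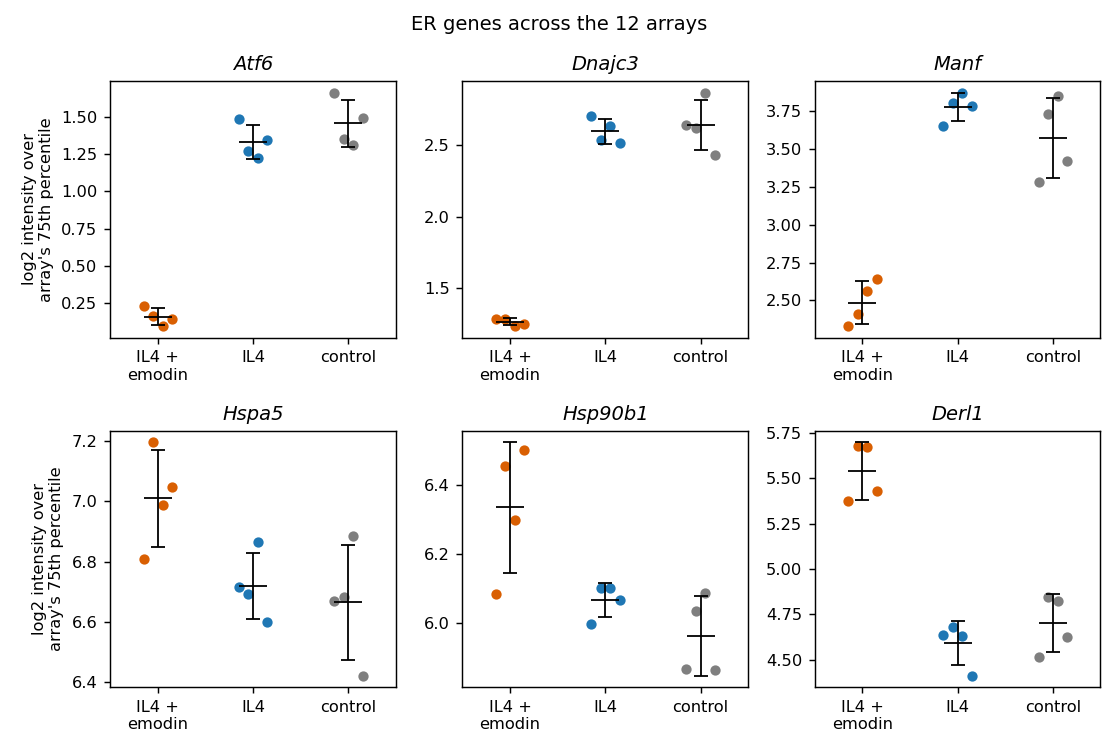
Levels on each of the 12 arrays of 3 ER genes called lower with IL4 plus emodin than with IL4 (*Atf6*, *Dnajc3*, *Manf*, top) and 3 called higher (*Hspa5*, *Hsp90b1*, *Derl1*, bottom), as log2 intensity over the 75th percentile of the array, with group means and SD (4 arrays each). The emodin arrays are apart from the others in the top row and for *Derl1*, and overlap them for *Hspa5* and *Hsp90b1*. With spike-in scaling *Hspa5* and *Hsp90b1* were called lower with emodin than with IL4, and *Derl1* was not called (-0.14, limma adjusted p = 0.250).

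In the group of lectin chaperones and thiol oxidoreductases, 4 of 7 genes (57.1%) were higher with IL4 plus emodin than with IL4. The shares over all genes were 39.4% higher and 26.5% lower. Of the other genes of the group, 2 were not called and 1 (14.3%) was lower, *Pdia4*, described above. *P4hb*, the founding disulphide isomerase, was at 5.55, 5.69, 5.75 and 5.74 with IL4 plus emodin and at 5.14, 5.13, 5.35 and 5.21 with IL4 (0.47 ± 0.08, adjusted p = 0.000292). *Pdia3*, the isomerase that pairs with the lectin chaperones, differed by 0.38 ± 0.11 (adjusted p = 0.00963), and the lectin chaperones *Canx* and *Calr* by 0.37 ± 0.06 (adjusted p = 0.000243) and 0.31 ± 0.10 (adjusted p = 0.0201). These 4 differences were between 1.24-fold and 1.39-fold. The call of *Calr* was lost without IL4 replicate 1 or without IL4 plus emodin replicate 3 or 4 (adjusted p = 0.0535 to 0.0646). Quantile scaling removed the calls of *Canx* (adjusted p = 0.177) and *Calr* (adjusted p = 0.595), and with spike-in scaling all 4 turned lower, by values from -0.77 to -0.61. *Pdia6*, a further isomerase, was not called (0.12 ± 0.08, adjusted p = 0.196).

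The translocon genes went different ways. *Sec61a1* was higher with IL4 plus emodin than with IL4 by 0.21 ± 0.07 (adjusted p = 0.0172), but stood at -0.046 with quantile scaling and at -0.87 with spike-in scaling. *Sec61b*, a small channel subunit, was at 6.11, 6.36, 6.36 and 6.48 with IL4 plus emodin and at 6.73, 7.06, 6.95 and 6.76 with IL4 (-0.55 ± 0.15, adjusted p = 0.00734), and its second probe gave -0.56 (adjusted p = 0.00737). *Ssr1*, a subunit of the translocon-associated protein complex, was not called by its brightest probe (-0.17 ± 0.09, adjusted p = 0.0987), whereas its other probes gave -0.72 (adjusted p = 0.00151) and -0.33 (adjusted p = 0.0110).

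Of the 7 tested genes of ER-associated degradation, 3 (42.9%) were higher with IL4 plus emodin than with IL4, 2 (28.6%) were lower and 2 were not called. These shares were near the 39.4% and 26.5% of all genes. *Derl1*, a derlin of the retrotranslocation site, was at 5.37, 5.68, 5.67 and 5.43 with IL4 plus emodin, at 4.64, 4.68, 4.63 and 4.41 with IL4, and at 4.52, 4.85, 4.82 and 4.63 with control. All emodin arrays lay above the rest, by 1.93-fold over IL4 (0.95 ± 0.11, adjusted p = 1.00e-05), but its second probe was not called (0.14 ± 0.11, adjusted p = 0.276) and spike-in scaling gave -0.14. *Edem1*, a mannosidase-like lectin, differed by 0.51 ± 0.11 (adjusted p = 0.00134). *Derl2* differed by 0.42 ± 0.11 (adjusted p = 0.00451), while its other probes were not called in this comparison and quantile scaling gave 0.011 (adjusted p = 0.905). With spike-in scaling *Edem1* and *Derl2* turned lower, at -0.58 and -0.67. *Sel1l* and *Edem2* were the 2 that fell, the second by -0.25 ± 0.09 (adjusted p = 0.0250), a call lost without IL4 replicate 2 (adjusted p = 0.0631), IL4 replicate 3 (adjusted p = 0.0815) or IL4 plus emodin replicate 1 (adjusted p = 0.0599). *Syvn1* and *Herpud1*, a scaffold of the same ligase, were not called (adjusted p = 0.0856 and 0.730).

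With IL4 plus emodin against control, 13 of 30 genes (43.3%) were higher, where 37.3% of all genes were, and 10 (33.3%) were lower, where 25.6% of all genes were. The median was 0.20, against 0.15 over all genes. These counts became 6 higher and 11 lower with quantile scaling and 1 higher and 26 lower with spike-in scaling. Of all 20862 genes, 5587 were higher and 6300 lower with quantile scaling, and 860 higher and 15769 lower with spike-in scaling. *Ern1* was higher by 5.98-fold (2.58 ± 0.15, adjusted p = 4.50e-08), and *Dnajc3* (-1.38 ± 0.09), *Atf6* (-1.29 ± 0.09) and *Manf* (-1.09 ± 0.12) were each more than 2-fold lower. None of these 3 genes was called between IL4 and control, and the emodin arrays stood below those of both.

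Because the emodin arrays were dimmer, the 30 genes were also scaled in other ways. Quantile scaling moved the median difference of all genes between IL4 plus emodin and IL4 to 0.02, from which the ER genes' counts became 6 higher and 14 lower. Under it 6134 of all 20862 genes were higher and 6451 lower. Scaling to 7 bright spike-in probes moved that median to -0.92, and the counts became 1 higher and 28 lower. With this scaling 722 of all 20862 genes were higher and 16834 lower, so the 28 are not read as a result about the ER genes. Spike-in scaling lowered every difference by the same amount, so genes called lower could not change direction under it. With quantile scaling 11 of these 12 kept direction and call, *Edem2* being the exception (-0.20, adjusted p = 0.0527). Of the 12 called higher, 6 kept the call with quantile scaling and 1, *Ern1*, with spike-in scaling. Beside that median of -0.92, the spike-in values of *Xbp1*, *Dnajc3*, *Atf6*, *Manf* and *Pdia4* were -2.50, -2.42, -2.26, -2.38 and -3.16.

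**Figure D5:**
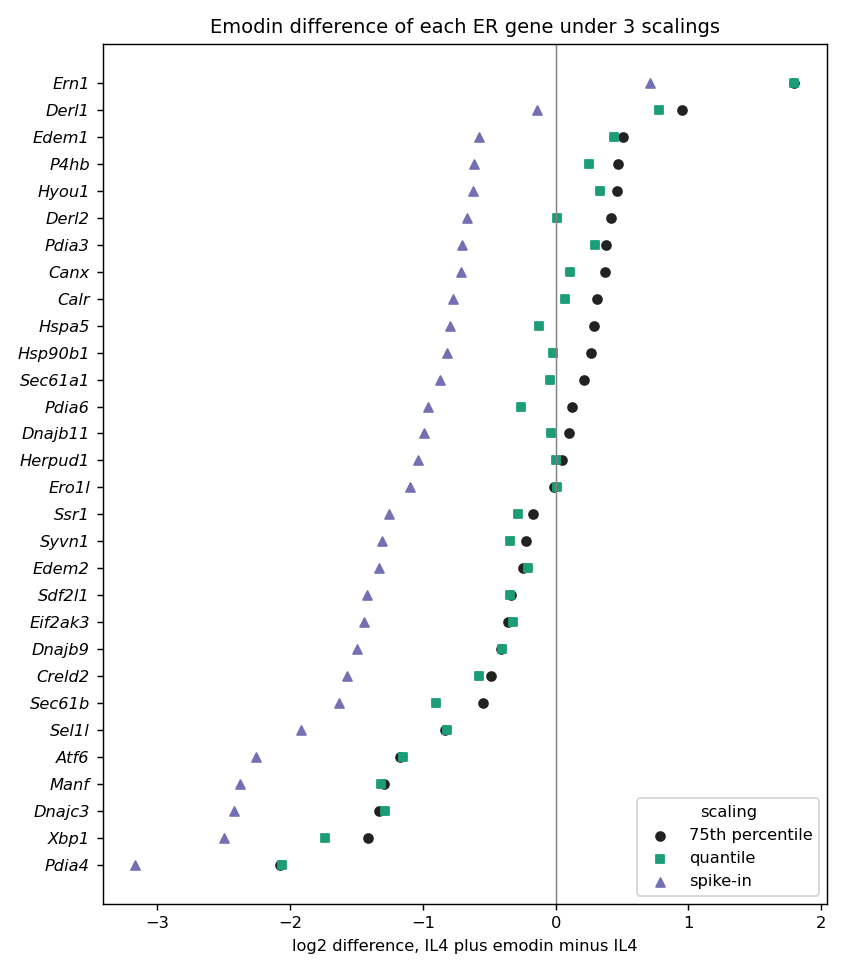
Log2 difference, IL4 plus emodin minus IL4, of the 30 tested ER genes under the 75th percentile, quantile and spike-in scalings. Spike-in scaling moves every gene down by the same amount and leaves *Ern1* above 0 at 0.71.

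Set beside the promoter sequences shown earlier, genes with and without an ER stress element were described as 2 groups without a test. Of the 10 tested genes that carry either form, 0 were called higher and 0 lower with IL4, and their differences ran from -0.08 to 0.28, the last being that of *Syvn1*, which was called with the replicate block (adjusted p = 0.0239). Of the 15 tested genes whose windows hold neither, 5 were higher and 1 was lower with IL4. Of the 5 genes without a window, 1 was higher and 0 were lower. Over all genes 8.98% were higher and 8.56% lower, so 0 calls among 10 genes is not read as a result. Between IL4 plus emodin and IL4, 4 carriers were higher (*Hspa5*, *Hsp90b1*, *Calr* and *Canx*, all lower with spike-in scaling), 2 were lower (*Dnajc3* and *Creld2*) and 4 were not called. Of the non-carriers, 5 were higher, 8 were lower and 2 were not called. Of those 5 higher non-carriers, only *Ern1* stayed higher with spike-in scaling, and the rest turned lower. The 5 genes without a window had 3 higher and 2 lower. Over all genes 39.4% were higher and 26.5% lower. With quantile scaling none of the 4 carriers called higher kept its call, and the carriers *Pdia6* (-0.26, adjusted p = 0.00526) and *Syvn1* (-0.35, adjusted p = 0.0456) were called lower.

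The neighbouring pathways were read from lists that hold none of the 31 genes. The PERK arm and integrated stress response, the branch that acts through ATF4, had 9 of 15 genes higher and 0 lower with IL4 than with control (median 0.57). They included *Atf3* (1.01 ± 0.07), *Ddit3*, which encodes CHOP (0.98 ± 0.16), *Chac1*, a glutathione-degrading enzyme (0.97 ± 0.14), and *Trib3*, a pseudokinase (0.90 ± 0.13), and each stayed called with quantile and spike-in scaling. With IL4 plus emodin against IL4, 7 of 15 were higher and 2 lower (median 0.28), counts that became 5 and 5 with quantile scaling (median -0.019) and 1 and 11 with spike-in scaling (median -0.80). The highest was *Ppp1r15a*, which encodes the eIF2 alpha phosphatase subunit GADD34 (1.43 ± 0.09, and 0.35 with spike-in scaling). Its constitutive relative *Ppp1r15b* (1.09 ± 0.07) stood at 0.01 with spike-in scaling.

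Of 15 other sensors and regulators of the response, 3 were higher with IL4 and 0 lower, among them the membrane-bound transcription factor gene *Creb3l2* (1.16 ± 0.12) and *Wfs1*, a calcium regulator of the ER membrane (0.72 ± 0.19). On emodin, 2 of the 15 were higher than with IL4 and 6 lower. *Creb3l1* (-1.20 ± 0.15) and *Creb3* (-0.95 ± 0.09), from the same family of cleaved factors as ATF6, fell, whereas *Mbtps2*, the protease gene that completes ATF6 cleavage, was at 0.99 ± 0.07 and at -0.10 with spike-in scaling. Of 30 other folding enzymes and chaperones, 2 were higher and 0 lower with IL4, and 8 were higher and 8 lower with emodin. The largest falls were *Txndc11* (-1.60 ± 0.08), *Erp44*, which retains thiol clients in the ER (-1.44 ± 0.10), and *Tmx3* (-1.04 ± 0.07), all thioredoxin-fold proteins. *Txndc11* was also called higher with IL4 (0.42 ± 0.08).

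Of 24 other degradation genes, 1 was higher and 0 lower with IL4, and 12 were higher and 6 lower with emodin. *Marchf6*, a ubiquitin ligase gene of the ER membrane, was the gene that rose with IL4 (0.44 ± 0.10). Of 30 other translocon, signal peptidase, signal recognition and glycosylation genes, 3 were higher and 0 lower with IL4, and 13 were higher and 5 lower with emodin. *Stt3b*, a catalytic subunit of oligosaccharyltransferase, rose with IL4 (0.62 ± 0.09), and on emodin *Tram2*, a translocon-associated protein gene (1.73 ± 0.11), and *Spcs3*, a signal peptidase subunit (-0.998 ± 0.09), were apart in opposite directions, and *Tram2* stayed higher with spike-in scaling. Of 25 ER to Golgi traffic genes, 1 was higher and 0 lower with IL4, and 5 were higher and 9 lower with emodin, where the COPII coat gene *Sec24d* (-1.12 ± 0.09) and the SNARE gene *Bet1* (-1.08 ± 0.16) fell. Over these 6 lists together, 19 of 139 tested genes were higher (13.7%) and 0 lower with IL4, where 8.98% and 8.56% of all genes were. With emodin 47 were higher (33.8%) and 36 lower (25.9%), where 39.4% and 26.5% of all genes were. These counts became 34 and 49 after quantile scaling, where 6134 and 6451 of all 20862 genes were. After spike-in scaling they became 2 and 128, where 722 and 16834 of all genes were.

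A list of cytosolic and mitochondrial chaperones served for comparison outside the ER. With IL4, 5 of 23 (21.7%) were higher and 1 (4.35%) lower, where 8.98% and 8.56% of all genes were. The higher genes included *Hsph1*, an HSP110-type exchange factor (1.04 ± 0.11), and *Bag3*, an HSP70 cochaperone (0.76 ± 0.10). On emodin, 12 (52.2%) were higher than with IL4 and 5 (21.7%) lower, where 39.4% and 26.5% of all genes were. The list's counts became 9 and 6 with quantile scaling and 1 and 20 with spike-in scaling. *Hspa1a*, the inducible cytosolic HSP70, was highest (2.23 ± 0.16, and 1.14 with spike-in scaling), while the J-protein genes *Dnajb1* (-0.91 ± 0.08) and *Dnaja1* (-0.87 ± 0.10) fell.

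Labelled sex was tested as an interaction with each treatment. For IL4 against control, 0 of the 30 genes and 0% of all genes were called by limma, and 0 of the 30 had an unadjusted p below 0.05, where 1.30% of all genes did. For IL4 plus emodin against IL4 the counts were again 0 of 30 and 0%, and 0 of 30 had an unadjusted p below 0.05, where 2.43% of all genes did. Each sex had 2 arrays per group.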

How the data were processed

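Total RNA of 12 samples was labelled with Cy3 and read on Agilent mouse arrays, 1 array per sample. The deposited scanner files hold background-subtracted spot intensity, per the file headers made with version 10.7.3.1 of Agilent Feature Extraction. A deposited value table in log2 units matched these signals after quantile normalization and centring of each probe on its median (correlation 1.00, same direction), and was used as an alternative. With 4 arrays per group, the number of arrays limits the precision.

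Each array's 75th percentile was subtracted from its log2 processed intensities. Control spots and outlier spots were left out, spots of a probe were averaged, and a probe entered if some group had it well above background on all 4 arrays. Symbols came from unversioned RefSeq transcripts, which named 27509 of 55681 probes with 1 symbol, and the brightest probe on average stood for a gene. The fit used limma (version 3.58.1, in R 4.3.3) with 3 group means (9 residual degrees of freedom), two-sided, with Benjamini-Hochberg adjustment over 20862 genes, of which 13197 had a symbol and 7665 were transcripts without one. The R package data.table (version 1.17.8) held the tables, and promoters and figures used Python 3.11.15, pandas 2.3.3 and matplotlib 3.10.9. Promoter windows are RefSeq's, of build GRCm38.p6.

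The 31 genes, the pathway lists and the markers were chosen with earlier results of these data known. All 31 genes are named. Of each pathway list, up to 4 called genes with the largest difference were eligible, of which the text gives a subset.

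Tested on simulated data (20862 genes, 200 of them changed), the fit found 79.1% of 2-fold changes between IL4 plus emodin and IL4, 82.1% between IL4 plus emodin and control and 77.6% between IL4 and control, with 10, 7 and 8 false calls. The simulated arrays had independent noise, no difference in brightness and few changed genes. The emodin arrays were dimmer and many genes were called on them, so these rates do not carry over to the emodin calls.

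Replicate numbers came from the titles. Arrays with the same number deviated together between IL4 and control (r from 0.311 to 0.524 for the 4 pairs), so the numbers were taken to pair these groups. The main fit did not use these pairs, so its SEs and adjusted p-values are those of unpaired arrays. The replicate block, which does use them, was an alternative setting. Between IL4 and control it changed the call of *Syvn1* alone among the ER genes.

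Alternatives were quantile and spike-in scaling, normexp background correction (offset 50, on the median spot signal, as no mean signal was used), other filters on dim probes, the replicate block, sex as a covariate, only the groups compared, the mean of a gene's probes, a probe-level fit, the deposited table, and leaving out each array. The 75th percentile over probes detected on all arrays was added after seeing the data.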

Additional observations from a re-analysis of the deposited data

Results flagged for a closer look

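In each of the 30 tested genes and 3 groups, the array farthest from the others was compared with the group's range. Of these 90 sets of 4 arrays, 5 had an array whose gap to the nearest other array took up more of the range than Dixon's 95% critical value allows, and chance gives about 1 in 20. *Ern1* was low on IL4 plus emodin replicate 3, at 1.95 against 2.25 to 2.28 on the others (gap 0.894 of the range). *Ero1l* (*Ero1a*) was high on IL4 plus emodin replicate 4, at 1.02 against 0.67 to 0.72 (0.857). *Ssr1* was high on IL4 plus emodin replicate 2, at 4.68 against 4.57 to 4.59 (0.868). *Herpud1* was low on IL4 replicate 4, at 3.34 against 3.52 to 3.54 (0.881). *Pdia6* was high on control replicate 2, at 6.64 against 6.43 to 6.47 (0.846).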

How the results depend on the processing

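With IL4 against control, the median difference of the ER genes was 0.20 and 0 were lower with spike-in scaling, and 4 of the 6 genes called higher (*Ern1*, *Xbp1*, *Pdia4* and *Ero1l*) kept the call in every setting and without each array. Leaving out 1 array gave 4 to 7 higher, 1 to 1 lower and medians of 0.05 to 0.13. With IL4 plus emodin against IL4, 6 were higher with quantile scaling, 1 with spike-in scaling and 6 in the authors' deposited table, 28 were lower with spike-in scaling, and the median was -0.17 (quantile), -1.07 (spike-in), -0.053 (normexp) and -0.17 (deposited table). Of all 20862 genes, 6134 were higher with quantile scaling, 722 with spike-in scaling and 6102 in the deposited table. With spike-in scaling 16834 of all genes were lower. Leaving out 1 array gave 9 to 12 higher, 10 to 13 lower and medians of -0.01 to 0.02 for the ER genes. With IL4 plus emodin against control, 6 were higher with quantile scaling, 1 with spike-in scaling and 6 in the deposited table, 26 were lower with spike-in scaling, and the median was -0.032 (quantile), -0.76 (spike-in), -0.038 (deposited table) and 0.12 (75th percentile over probes detected on all arrays). Of all 20862 genes, 5587 were higher with quantile scaling, 860 with spike-in scaling and 5552 in the deposited table. With spike-in scaling 15769 of all genes were lower. Leaving out 1 array gave 12 to 16 higher, 9 to 10 lower and medians of 0.17 to 0.25 for the ER genes. Spike-in scaling reversed 14 genes against IL4: *Hspa5* (-0.79), *Hyou1* (-0.62), *Hsp90b1* (-0.82), *Dnajb11* (-0.99), *Calr* (-0.77), *Canx* (-0.71), *Pdia3* (-0.70), *Pdia6* (-0.96), *P4hb* (-0.61), *Sec61a1* (-0.87), *Herpud1* (-1.04), *Edem1* (-0.58), *Derl1* (-0.14) and *Derl2* (-0.67). Against control it reversed 18: *Hspa5* (-0.61), *Hyou1* (-0.25), *Hsp90b1* (-0.59), *Dnajb11* (-0.71), *Calr* (-0.73), *Canx* (-0.58), *Pdia3* (-0.75), *Pdia4* (-0.031), *Pdia6* (-0.80), *P4hb* (-0.49), *Ero1l* (-0.55), *Sec61a1* (-0.51), *Ssr1* (-0.94), *Herpud1* (-0.77), *Edem1* (-0.61), *Syvn1* (-0.90), *Derl1* (-0.12) and *Derl2* (-0.52). Quantile scaling reversed 4 against IL4, *Hspa5* (-0.13), *Hsp90b1* (-0.022), *Pdia6* (-0.26) and *Sec61a1* (-0.046), and 2 against control, *Hspa5* (-0.034) and *Pdia6* (-0.18). The deposited table reversed the same genes, at -0.14, -0.026, -0.26 and -0.049 against IL4 and at -0.044 and -0.18 against control. The mean of its probes gave *Ssr1* -0.24 with IL4 plus emodin against control. The cause of these changes was not tested. With the replicate block, *Syvn1* was called higher with IL4 than with control (0.28, adjusted p = 0.0239), and no other call of that comparison changed. Between IL4 plus emodin and IL4, same-numbered arrays correlated by 0.0935 to 0.438 and every array correlated best with its own number. Between IL4 plus emodin and control the range was 0.0559 to 0.515 and 3 of 4 did. There the numbers were not taken as pairs. As a block they gave 14 lower against IL4, with *Ssr1* and *Syvn1* added, and 15 higher and 11 lower against control, with *Calr*, *Pdia3* and *Sdf2l1* added. The 30 tested genes were above background throughout, while *Derl3* could not be compared. *Hyou1* was dim, with means of -1.65 with IL4 plus emodin, -2.11 with IL4 and -2.36 with control. Without the filter on dim probes, the median difference of all genes between IL4 plus emodin and IL4 was 0.49. The part of dimness in the call of *Hyou1* was not tested.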
